A study of Mus musculus with 58 samples.

Results

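The genotype difference was measured in mice that had received fluoxetine in early life. The comparison took 20 of the 58 prefrontal cortex libraries of the series, those labelled fluoxetine: 10 from Tanc2 heterozygous (HT) mice and 10 from wild-type (WT) mice, each with 5 females and 5 males. Every mouse was on the C57BL/6J strain and was analysed on postnatal day 25, after 3 weeks of drug from day 3 to day 24. The drug reached the pups through the milk of their mothers, so the dose each pup took in was not recorded in the labels. Each value is the log2 difference HT minus WT with the sexes weighed equally, over the 17925 genes of 18088 that reached a normalized read count of 10 in at least 4 libraries. The other arms of the study, used below only to set the difference in context, were 10 HT and 9 WT mice on vehicle, and 9 HT and 10 WT mice on lithium. Neither the altered stretch of Tanc2 nor the litter of a mouse is given in the labels, and the tests take each mouse as an independent unit.

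Tanc2 encodes a large scaffold protein with ankyrin and tetratricopeptide repeats that sits at excitatory synapses, binds PSD-95 and other postsynaptic proteins, and has been described as an inhibitor of mTOR signalling. Variants of the human gene are linked to neurodevelopmental and psychiatric disorders. Fluoxetine blocks the serotonin transporter and so prolongs serotonin signalling, and the weeks in which these pups received it are a time of synapse formation and myelination in the rodent cortex.

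The fluoxetine libraries held between 23271044 and 37801615 recovered reads (median 27415478). All 14 markers of upper cortical layers reached the read count needed for testing. Their summed level ran from 48002 to 69344 in HT mice and from 47226 to 65912 in WT mice. Markers of regions next to the prefrontal cortex were also present, and single libraries were high in them. The summed level of 25 olfactory bulb and neuroblast markers ran from 14434 to 50418 in HT mice, highest in HT male 3. In WT mice it ran from 15317 to 71981, highest in WT female 3, with WT male 5 at 51151. The median sum was 23335 in HT mice and 21089 in WT mice. For 24 striatal neuron markers the sum ran from 24708 to 37573 in HT mice, again highest in HT male 3, and from 21115 to 28246 in WT mice. A further split ran through the females: reads of Gm10221, an annotated gene model, were present in all 5 HT females and in 3 of 5 WT females, and in no fluoxetine male. WT females 1 and 5 had none, and they had mt-Atp6 levels of 23007 and 11019, against 44646 to 65695 in the other 3 WT females. The same reads separated the other arms: all 19 lithium libraries of both sexes and genotypes had them and none of the 19 vehicle libraries did, with mt-Atp6 at 32545 to 76292 under lithium and 15217 to 33350 under vehicle. Presence of these reads thus nearly coincided with sex in the fluoxetine arm and wholly with drug between the other arms. For results in females, values with a term for these reads, which within the fluoxetine arm sets the HT females against the 3 WT females that have them, are given where they moved.

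Tanc2 itself, on chromosome 11 (GRCm38, 105589986 to 105929304), was not lower in HT libraries. Its normalized read counts were 8283, 8150, 8289, 7424 and 8424 in HT females, against 7795, 7677, 7053, 7647 and 6566 in WT females. In males they were 8073, 7550, 7414, 8831 and 8170 in HT mice, against 8155, 7637, 7651, 7395 and 7714 in WT mice. The groups overlapped, with 5 of 10 HT libraries above the highest WT library. Tanc2 averaged 8061 ± 463 in HT mice and 7529 ± 439 in WT mice (SD, n = 10 each), a log2 difference of 0.10 ± 0.04 (SE) with an adjusted p of 0.745. The difference was 0.10 ± 0.04 also under vehicle and 0.09 ± 0.04 under lithium. HT libraries thus averaged slightly above WT libraries in each arm, and Tanc2 passed in none of them with limma. Because the count covers the whole gene, it checks the genotype labels only for an allele that lowers the total transcript level.

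Of 12 Tanc scaffolds and binding partners, Tanc2 was the single one with a value above 0, and the median of the list was -0.044, against 8896 of 17925 genes above 0 (49.6%) and a median of -0.000583 for all genes tested. Tnik, a kinase of the postsynaptic density, lay between 6572 and 7750 in HT mice (median 7374) and between 6736 and 9307 in WT mice (median 7722). All 10 HT libraries were below the WT mean of their own sex, but the groups overlapped and the difference of -0.11 ± 0.04 had an adjusted p of 0.675. The list median was -0.064 to -0.024 when single libraries were left out, nearest to 0 without HT male 3. In females 6 of 12 were above 0 (median 0.008) and in males 1 of 12 (median -0.077). With the term for Gm10221 reads 5 of 12 were above 0 (median -0.028). With the trend on transcript length removed 2 of 12 were (median -0.024). Under vehicle 2 of 12 were above 0 (median -0.025), and under lithium 4 of 12 (median -0.014).

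**Figure D1:**
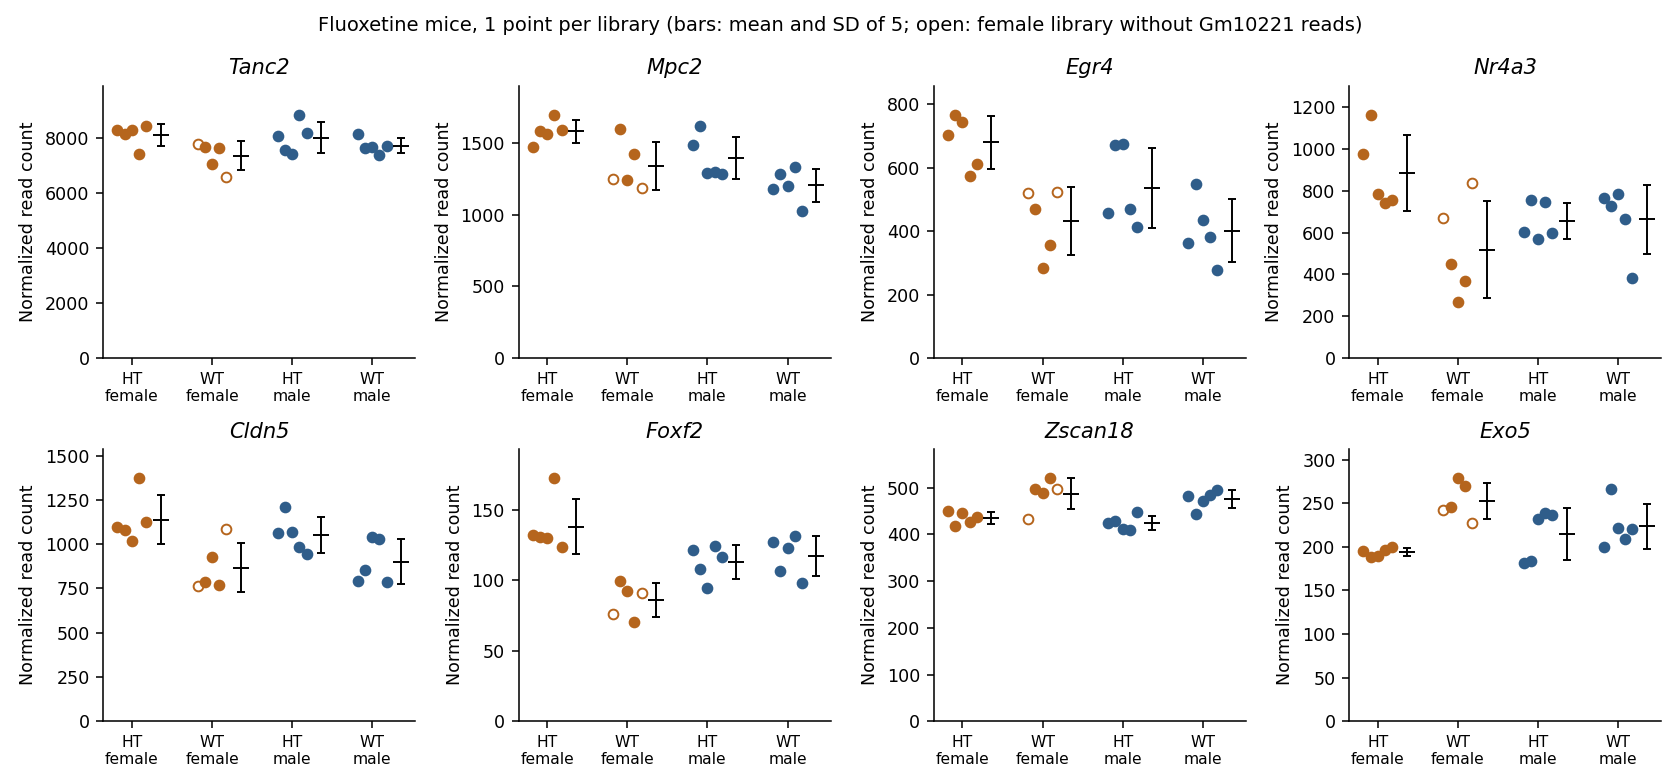
Normalized read counts of 8 genes in the fluoxetine mice, HT left of WT within each sex, 1 point per library, with the mean and SD of 5 libraries as bars and open points for female libraries without Gm10221 reads. Tanc2 overlapped between genotypes, Foxf2 and Exo5 separated in females, and the WT females without Gm10221 reads lay above the other WT females in Nr4a3.

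No gene passed an adjusted p of 0.05 between HT and WT mice on fluoxetine (0% of 17925 genes, limma), and the smallest adjusted p was 0.233. At an unadjusted p under 0.05 there were 1114 genes (6.21%), of which 630 were higher in HT (3.51%) and 484 lower (2.7%). edgeR on the recovered reads called 0 genes and had 1144 at an unadjusted p under 0.05. DESeq2 called 2 (0.0112%), Mpc2 and the pseudogene Gm10222. The size of difference left possible was small for most well-measured genes: of 13711 genes with a mean of 50 or more, 97% had a 95% interval inside -0.5 to 0.5 on the log2 scale and 99.3% inside -1 to 1. Over all genes tested, 81.6% had an interval inside -0.5 to 0.5 and 59.7% inside -0.25 to 0.25. In no gene were all 10 HT libraries above or below all 10 WT libraries (0%).

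The smallest p by limma was that of Mpc2, on chromosome 1 (165460637 to 165481214), a subunit of the carrier that takes pyruvate into mitochondria. Its counts were 1473, 1586, 1563, 1696 and 1591 in HT females, against 1247, 1597, 1242, 1422 and 1188 in WT females. In males they were 1487, 1616, 1293, 1298 and 1287 in HT mice, against 1176, 1281, 1202, 1331 and 1027 in WT mice. All 10 HT libraries were above the WT mean of their sex, but only 2 were above the highest WT library. The log2 difference was 0.23 ± 0.05, with an adjusted p of 0.233 by limma and 0.0241 by DESeq2. Without WT female 2, the highest WT library, limma gave 0.26 and an adjusted p of 0.00967. The difference was smallest, 0.19, when the WT females without Gm10221 reads, at 1247 and 1188, were left out. Mpc2 passed in 2 of 35 alternative settings.

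The next well-measured genes by p among those higher in HT, 13 in all, followed, with adjusted p-values of 0.301 to 0.388. Egr4, an immediate early transcription factor on chromosome 6 (85511121 to 85513589), had counts of 703, 766, 744, 572 and 612 in HT females, against 521, 470, 284, 355 and 524 in WT females. In males it had 457, 671, 675, 470 and 412 in HT mice, against 364, 548, 434, 380 and 278 in WT mice. The females did not overlap and the males did, and the log2 difference of 0.56 ± 0.12 was the widest of the 14. Cldn5, the tight-junction protein of brain endothelium, lay between 947 and 1372 in HT mice (median 1072) and between 763 and 1086 in WT mice (median 822), with a difference of 0.32 ± 0.07. Hhex, a homeobox factor of endothelial and blood lineages, was at 42.9 to 76.9 in HT mice and 28.0 to 56.9 in WT mice (0.49 ± 0.12). Sox9, a transcription factor of astrocytes in the mature brain, was at 509 to 754 in HT mice and 408 to 608 in WT mice (0.33 ± 0.08). In each of these genes 10 of 10 HT libraries exceeded the WT mean of their sex. The genes were picked by p in these same libraries, so this count is no separate support.

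The remaining genes of that set were mostly small, widely expressed ones. Mitochondrial proteins were among them: Cox5a, a cytochrome c oxidase subunit, differed by 0.16 ± 0.04, and Usmg5, a small subunit of ATP synthase, by 0.24 ± 0.06. Emc6, part of the complex that inserts membrane proteins at the endoplasmic reticulum, had counts of 743 to 906 in HT mice and 641 to 870 in WT mice, a difference of 0.19 ± 0.05. Emc6 also passed when WT female 2 was left out, with an adjusted p of 0.0488. Nr2f6, an orphan nuclear receptor, differed by 0.28 ± 0.07, and Pgp, a phosphatase that clears glycolytic by-products, by 0.15 ± 0.04. Bloc1s4, a subunit of a complex for lysosome-related organelles, Tmem158, a membrane protein induced by RAS, H2afj, a histone H2A variant, and Pcbd2, a pterin dehydratase, differed by 0.22 ± 0.06, 0.28 ± 0.07, 0.20 ± 0.05 and 0.49 ± 0.13.

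Among genes lower in HT mice, Zscan18, a zinc finger factor on chromosome 7 (12768090 to 12803635), had the smallest p. Its counts were 449, 418, 445, 426 and 437 in HT females, against 433, 498, 489, 520 and 498 in WT females. In males they were 424, 429, 412, 410 and 448 in HT mice, against 482, 444, 471, 484 and 495 in WT mice. All 10 HT libraries were below the WT mean of their sex and 6 were below the lowest WT library. The difference was -0.16 ± 0.04 over both sexes, with an adjusted p of 0.301, and -0.16 ± 0.05 in females and in males alike. Exo5, a DNA exonuclease, followed with -0.22 ± 0.06, but its difference lay mostly in females and is given with them.

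The other 12 genes of the lower set had adjusted p-values of 0.409 to 0.658. Smarcc2, a core subunit of the BAF chromatin remodelling complex, was at 6840 to 8231 in HT mice and 7515 to 8763 in WT mice (-0.13 ± 0.04). Hif3a, a hypoxia-inducible factor that also responds to glucocorticoids, was at 198 to 435 in HT mice and 286 to 834 in WT mice (-0.48 ± 0.14). Eps8l1, an actin regulator related to Eps8, had the widest difference of this set, -1.16 ± 0.37, with counts of 19.2 to 222 in HT mice and 123 to 412 in WT mice. Zfp189 and Zc3h4, both zinc finger proteins, differed by -0.31 ± 0.08 and -0.10 ± 0.03. Cpsf3, the endonuclease that cuts pre-mRNA at the poly(A) site, differed by -0.09 ± 0.03, and Srpk3, a kinase of splicing factors, by -0.34 ± 0.10. Wdr19, a protein of ciliary transport, and Net1, an exchange factor for RhoA, differed by -0.13 ± 0.04 and -0.28 ± 0.08. Fam160a1, Sypl2, a synaptophysin relative, and Simc1, a SUMO-binding protein, differed by -0.35 ± 0.10, -0.40 ± 0.11 and -0.18 ± 0.05. HT and WT libraries overlapped in every one of these genes.

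**Figure D2:**
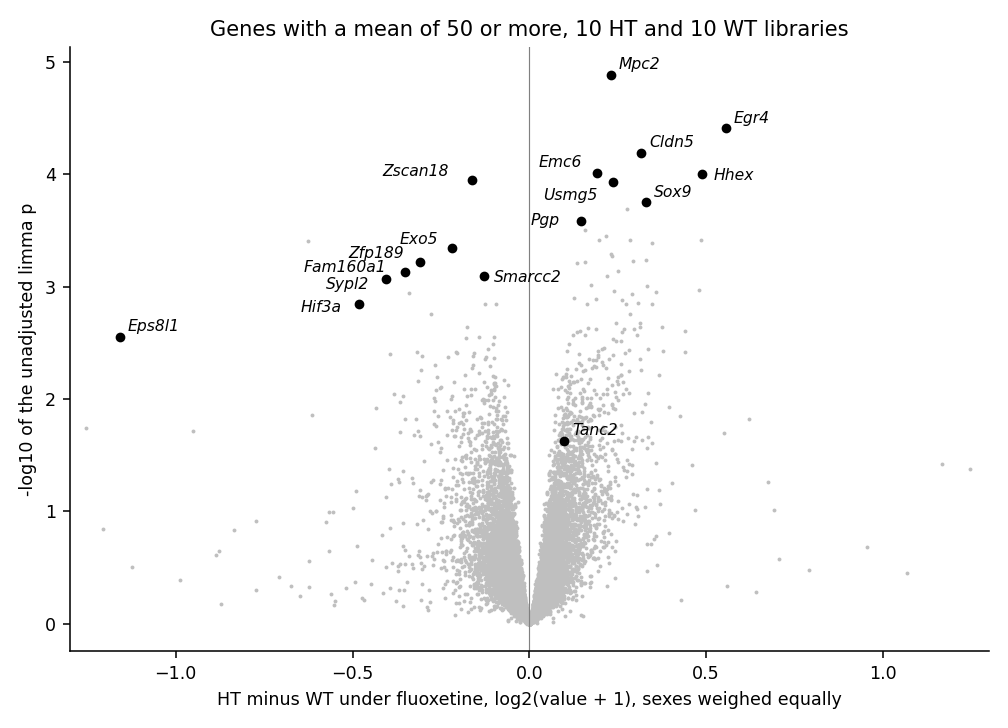
Log2 difference HT minus WT (horizontal) against -log10 of the unadjusted p (vertical) for genes with a mean of 50 or more, with named genes in black and 10 genes lying outside the horizontal range. Mpc2 and Egr4 had the smallest p-values, and Tanc2 lay at 0.10 with an unadjusted p of 0.024 (limma).

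Immediate early genes, which neurons switch on within minutes of activity, stood on balance above 0. Of 41 tested, 30 had a value above 0 and the median was 0.11. At an unadjusted p under 0.05, 10 were higher, against 3.51% of all genes, and 1 was lower, against 2.7%. In females 13 were higher at that threshold, against 571 of 17925 genes (list median 0.136). In males 1 was higher, against 372 of 17925 genes, and 1 was lower, against 180. The list median in males was 0.074, with 30 of 41 above 0. Egr3, a paralogue of Egr4, lay between 3095 and 4605 in HT mice (median 3622) and between 1417 and 3766 in WT mice (median 2774), a difference of 0.48 ± 0.14. Homer1, whose short form loosens postsynaptic scaffolds, lay between 6285 and 9249 in HT mice (median 8411) and between 4535 and 8401 in WT mice (median 6907), a difference of 0.29 ± 0.08. Jund, an AP-1 factor, differed by 0.24 ± 0.07, and Ier5, an activity-induced nuclear protein, by 0.27 ± 0.08. All adjusted p-values of these genes were 0.512.

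The best-known members of the list did not share one course. Egr1 lay between 3685 and 6984 in HT mice (median 5207) and between 1949 and 6975 in WT mice (median 4049), with a difference of 0.42 ± 0.17. Fos differed by 0.37 ± 0.21 and Arc, whose product moves AMPA receptors out of the synapse, by 0.06 ± 0.24. Both were highest in HT male 3, with 1043 for Fos and 2772 for Arc, against 297 to 404 and 636 to 1124 in the other 4 HT males, and this library also had the highest striatal and olfactory bulb marker sums of the HT mice. Without HT male 3, Arc turned to -0.12 and the list median became 0.074. The part that neighbouring tissue had in these values was not tested.

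The same list differed between drug arms in its values. Under vehicle 32 of 41 genes were above 0 (median 0.155), against 50.2% of all genes, whereas under lithium 7 of 41 were (median -0.136), against 50.6% of all genes. The arms have no library in common. No immediate early gene passed in a test of the difference between arms in the main limma fit. With library weights, Ier5 passed against vehicle (adjusted p 0.0422, limma).

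**Figure D3:**
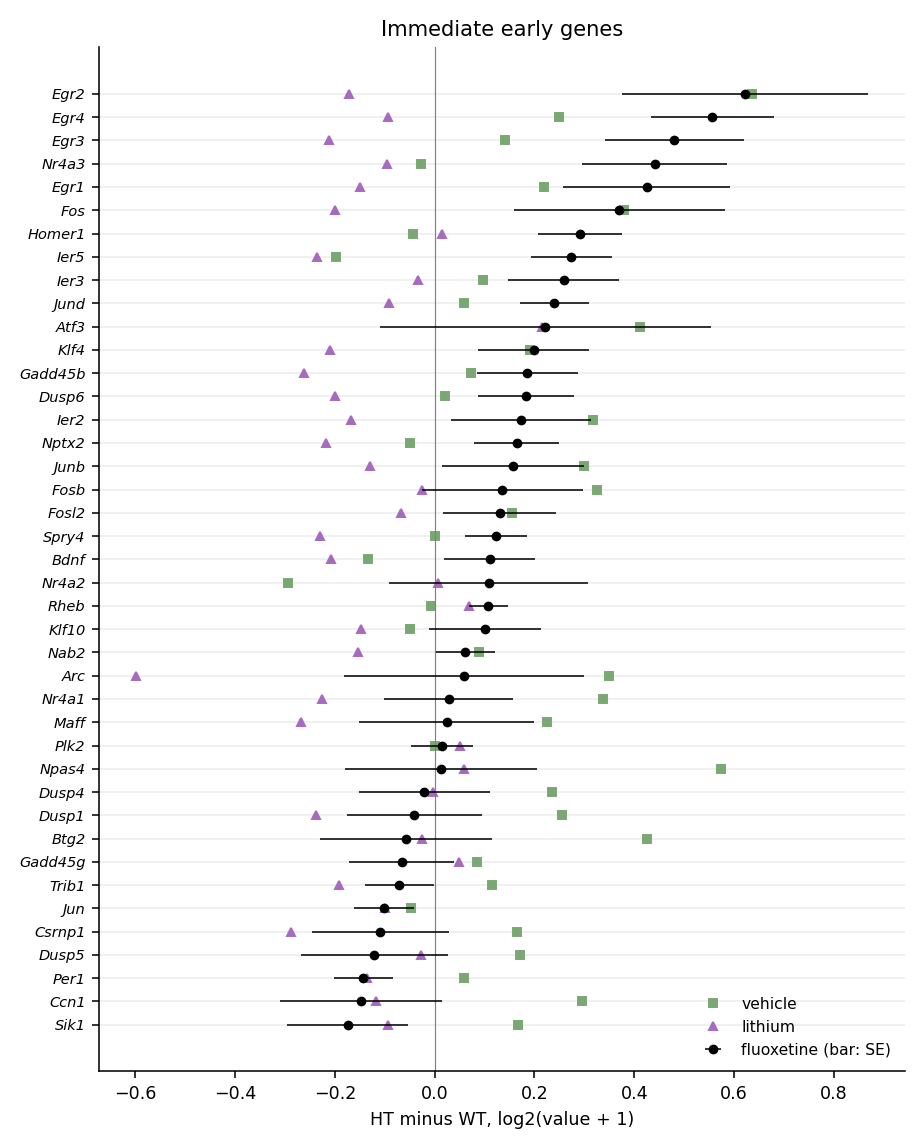
Log2 difference HT minus WT of 41 immediate early genes under fluoxetine (black, with SE), vehicle (squares) and lithium (triangles). Egr4, Egr3 and Nr4a3 lay above 0 under fluoxetine and below 0 under lithium.

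Activity-dependent transcription of such genes runs in part through cAMP response elements, whose core half-site is TGACG. The stretch before the start of Egr4 and Nr4a3 is shown because they were among the immediate early genes that passed in a comparison of females described below. Egr1, which also passed there, is not shown. Half-sites on either strand (TGACG or CGTCA) are in capitals. The Egr4 sequence is chr6:85513590-85513839 on the minus strand, and the Nr4a3 sequence is chr4:48045055-48045152 on the plus strand, cut where the annotated gene begins (RefSeq, GRCm38).
Egr4: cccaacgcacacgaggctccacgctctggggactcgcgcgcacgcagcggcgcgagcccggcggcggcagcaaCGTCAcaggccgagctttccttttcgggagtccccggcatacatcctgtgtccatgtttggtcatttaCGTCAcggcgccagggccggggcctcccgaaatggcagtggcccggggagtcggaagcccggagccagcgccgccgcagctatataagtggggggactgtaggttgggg
Nr4a3: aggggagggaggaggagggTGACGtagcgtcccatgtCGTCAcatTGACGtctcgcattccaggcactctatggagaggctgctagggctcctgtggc
Egr4 held 2 half-sites in 250 bases and Nr4a3 held 3 in 98 bases. In the 250 bases before each RefSeq start, the half-site was present in 5836 of 32851 promoters (17.8%) and in 29 of 48 promoters of the 31 listed genes that had an entry (60.4%). A serum response element, the CArG box, was present in 1.47% of all promoters and in 5 of these 48. Those 5 promoters belonged to only 2 of the 31 genes.

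Genes of energy metabolism and protein synthesis lay slightly above 0. Of 75 nuclear-coded subunits of oxidative phosphorylation, 67 were above 0 (median 0.070). At an unadjusted p under 0.05, 22 were higher, against 3.51% of all genes. Atp5e, a subunit of ATP synthase, was at 929 to 1402 in HT mice and 680 to 1312 in WT mice, a difference of 0.26 ± 0.08. Ndufa4 and Cox8a, which belong to cytochrome c oxidase, differed by 0.25 ± 0.08 and 0.19 ± 0.06. Slc16a1, the transporter that carries lactate across endothelial and glial membranes, was at 1488 to 2542 in HT mice and 1169 to 1794 in WT mice, a difference of 0.35 ± 0.09 with an adjusted p of 0.388. Of 76 cytosolic ribosomal protein genes, 71 were above 0 (median 0.055). Of these 76, 18 were higher at an unadjusted p under 0.05, against 3.51% of all genes. Rpl9 was at 3153 to 5018 in HT mice and 2702 to 3772 in WT mice (0.23 ± 0.06), and Rpl13a differed by 0.19 ± 0.06. These lists hold short transcripts, and in the data as a whole the 4479 genes with the shortest transcripts had a median of 0.026, against -0.015 in the 4479 with the longest. With that trend removed, 56 of 75 and 55 of 76 remained above 0, with medians of 0.037 and 0.026. The ribosomal median was 0.034 without HT female 4. In the other arms 68 of 76 ribosomal genes were above 0 under vehicle (median 0.039) and 54 under lithium (median 0.036). Of the 75 oxidative phosphorylation genes, 35 were above 0 under vehicle and 36 under lithium.

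The 15 mitochondrially coded genes had a median of 0.088 with 13 above 0, but this was not stable. It was 0.040 without HT female 4, whose summed level of 2831957 stood apart from the other 4 HT females, and 7 of 15 were above 0 after quantile normalization. mt-Rnr2, a ribosomal RNA of the organelle, differed by 0.19 ± 0.07. mt-Atp6, a subunit of ATP synthase, differed by 0.31 ± 0.19 over both sexes and by -0.05 with a term for Gm10221 reads. Of the 15 genes, 14 were above 0 under vehicle (median 0.041) and 15 under lithium (median 0.118).

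Genes of the unfolded protein response, which answers misfolded proteins in the endoplasmic reticulum, also lay above 0 in 23 of 27 cases (median 0.054). Of the 27, 7 were higher at an unadjusted p under 0.05, against 3.51% of all genes. In females 24 were above 0 (median 0.077), with 6 higher at that threshold, against 571 of 17925 genes. In males 17 were above 0 (median 0.017), with 1 higher, against 372 of 17925 genes. The list median over both sexes was 0.037 without WT male 5. Manf, a secreted protein of that response, was at 1066 to 1314 in HT mice and 936 to 1235 in WT mice, with 10 of 10 HT libraries above the WT mean of their sex (0.14 ± 0.04, adjusted p 0.409). Xbp1, its main transcription factor, differed by 0.16 ± 0.05, Dnajc3, a cochaperone, by 0.11 ± 0.03, and Hspa5, the chief chaperone, by 0.17 ± 0.06.

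Endothelial and microglia markers were the cell-type lists farthest above 0 apart from the striatal one. All 18 microglia markers were above 0 (median 0.147), 10 at an unadjusted p under 0.05, against 3.51% of all genes. Their summed level ran from 14807 to 20237 in HT mice and from 10938 to 17276 in WT mice. Gpr34 and P2ry13, receptors of resting microglia, differed by 0.29 ± 0.09 and 0.26 ± 0.08, with 10 of 10 HT libraries above the WT mean of their sex in each. Aif1, which encodes IBA1, and Cx3cr1, the fractalkine receptor, differed by 0.28 ± 0.10 and 0.16 ± 0.06. The microglia median was 0.089 without WT male 2. Of 25 endothelial markers, 23 were above 0 (median 0.132), 10 at an unadjusted p under 0.05, against 3.51% of all genes. In females the median was 0.194, with 12 higher at that threshold, against 571 of 17925 genes. In males it was 0.069, with 1 higher, against 372 of 17925 genes. The endothelial median over both sexes was 0.089 without HT female 4. Their summed levels were 20285 to 29744 in HT mice, highest in HT female 4, and 19896 to 24404 in WT mice. Sox18, a vascular transcription factor, and the receptors Kdr and Flt1 for vascular endothelial growth factor differed by 0.36 ± 0.10, 0.31 ± 0.09 and 0.24 ± 0.09. The other vessel list, of pericytes and smooth muscle, had 8 of 15 above 0 (median 0.019, and -0.049 without WT male 2). In bulk tissue, more cells of a type and more RNA per cell cannot be told apart. Under vehicle 7 of 18 microglia and 10 of 25 endothelial markers were above 0, and under lithium 8 and 3.

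Other glia lay nearer to 0 in the fit without a term for Gm10221 reads. Of 17 astrocyte markers 12 were above 0, with a median of 0.010 that turned to -0.017 without HT female 4, and beside Sox9 the smallest p-values were those of Slco1c1, a thyroid hormone transporter (0.25 ± 0.09), and S100b, a calcium-binding protein (0.14 ± 0.06). Of 25 markers of myelinating oligodendrocytes 13 were above 0 (median 0.012), with summed levels of 82647 to 257431 in HT mice and 97003 to 237702 in WT mice. Under vehicle and under lithium none of these 25 was above 0, with medians of -0.214 and -0.169. The fluoxetine median of the myelin list was -0.103 without HT male 4 and 0.089 without WT female 1. Of 13 oligodendrocyte precursor markers 9 were above 0 (median 0.043). With the term for Gm10221 reads the medians were 0.145 for myelin markers (21 of 25 above 0), 0.095 for precursor markers and 0.057 for astrocyte markers, against 0.174 for microglia markers.

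Synaptic genes lay close to 0 over both sexes. The medians were 0.010 for 24 excitatory postsynaptic scaffolds, -0.027 for 28 glutamate receptor genes, 0.004 for 28 genes of presynaptic release and -0.030 for 21 genes of the GABA synapse. When single libraries were left out these medians lay between -0.041 (GABA synapse, without HT female 2) and 0.042 (postsynaptic scaffolds, without HT male 3). Gria1, an AMPA receptor subunit, was at 8611 to 11775 in HT mice and 10310 to 13323 in WT mice, a difference of -0.11 ± 0.05, and 5 HT libraries were below the lowest WT library. Cacng2, which carries AMPA receptors to the synapse, differed by 0.11 ± 0.05, and Grik3, a kainate receptor subunit, by -0.15 ± 0.07. The adjusted p-values of these genes were 0.765 to 0.786. The transcript of the serotonin transporter, the target of fluoxetine, was not among the genes tested. Of 17 genes tested for serotonin receptors and for serotonin synthesis, breakdown and receptor trafficking, 5 were above 0 (median -0.051, and -0.018 without WT female 2), and Htr1f had the smallest p, with 56.7 to 105 in HT mice and 63.9 to 160 in WT mice (-0.32 ± 0.13).

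The mTOR pathway, in which Tanc2 has been placed, gave 14 of 32 genes above 0 (median -0.004). Rheb, the direct activator of mTOR complex 1, was at 2542 to 3014 in HT mice and 2397 to 2985 in WT mice (0.11 ± 0.04). Sesn1, an inhibitor of the pathway, was at 1399 to 1723 in HT mice and 1405 to 1950 in WT mice (-0.14 ± 0.05). Ddit4, another inhibitor that glucocorticoids induce, differed by -0.22 ± 0.09. Their adjusted p-values were 0.658 to 0.713. Glucocorticoid-responsive genes as a list had 4 of 21 above 0 (median -0.076). At an unadjusted p under 0.05, 4 were lower, against 2.7% of all genes. Sgk1, a kinase induced by glucocorticoids, lay between 1329 and 1626 in HT mice (median 1486) and between 1414 and 2092 in WT mice (median 1673), with 0 of 10 HT libraries above the WT mean of their sex (-0.18 ± 0.07, adjusted p 0.705). The list median was -0.128 without WT female 4, whose summed level was lowest.

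The list medians of neighbouring tissue markers had opposite signs for olfactory bulb and striatum. None of 25 olfactory bulb and neuroblast markers was above 0 (median -0.357), but the median was -0.104 without WT female 3 and -0.606 without HT male 3. The median library sum was not lower in HT mice (23335, against 21089 in WT mice). WT female 3 was at 71981, and WT male 5 at 51151, against 16827 to 21215 in the other WT males. Of 24 striatal markers 20 were above 0 (median 0.177), with medians of 0.091 in females and 0.386 in males, and 0.10 without HT male 3. Adding the olfactory bulb marker mean as a covariate left 0 genes called and gave 0.103 as the immediate early gene median, 0.134 as the microglia median and 0.123 as the endothelial median.

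**Figure D4:**
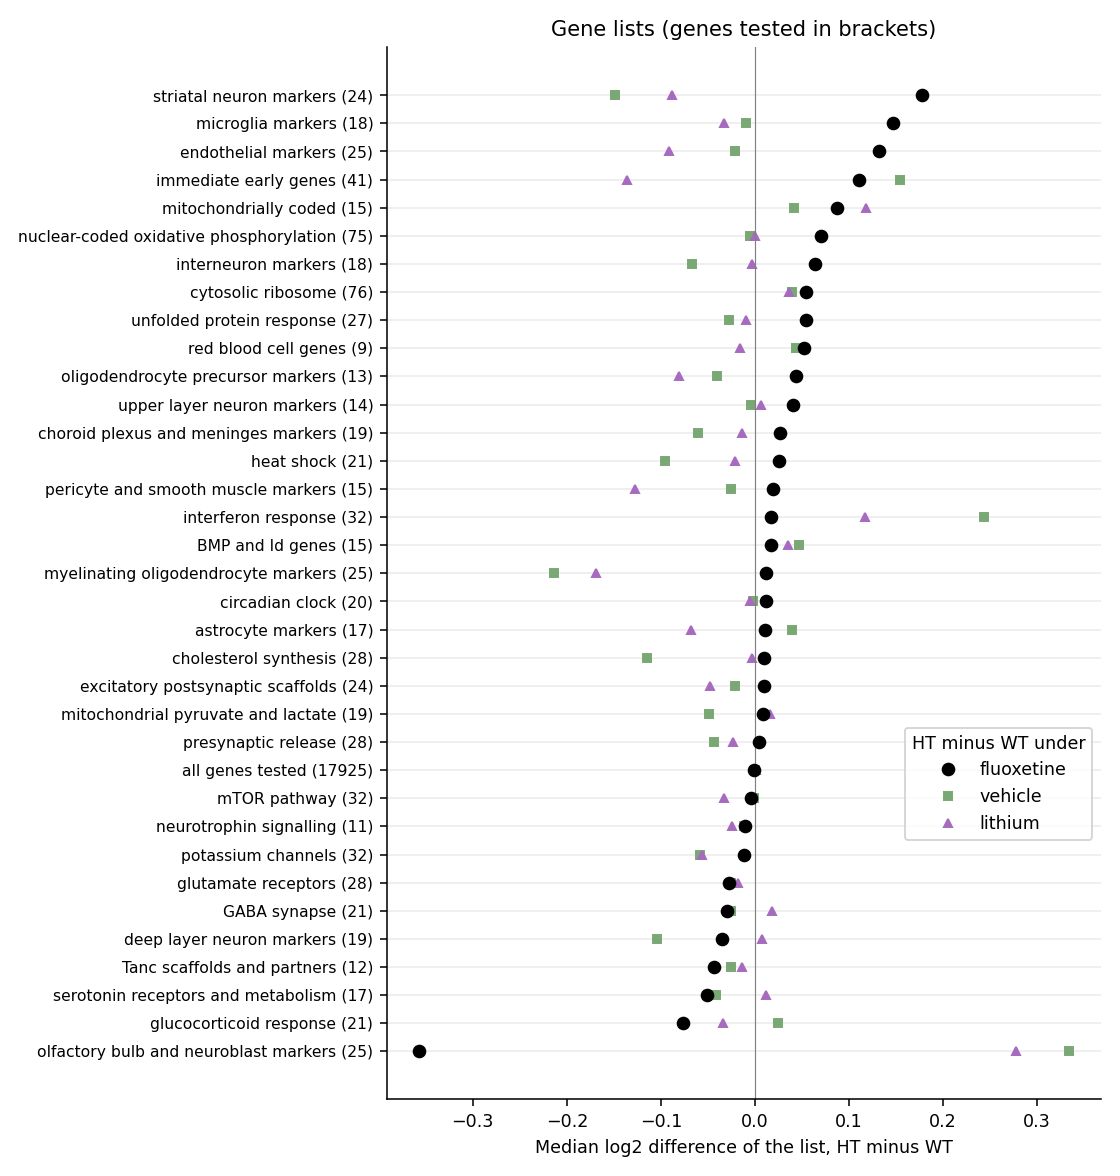
Median log2 difference HT minus WT of each gene list under fluoxetine (black circles), vehicle (squares) and lithium (triangles), with the number of genes tested. Microglia and endothelial markers lay above 0 under fluoxetine and below 0 in the other arms, and olfactory bulb markers lay at -0.357 under fluoxetine.

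Within females no gene passed with limma (0%, smallest adjusted p 0.163), and 1112 had an unadjusted p under 0.05 (6.2%). edgeR called 0 and DESeq2 called 3 (0.0167%), Foxf2 and the pseudogenes Rps13-ps1 and Gm9794. Foxf2, a forkhead factor of brain pericytes, had counts of 132, 131, 130, 172 and 124 in HT females, against 76.0, 99.5, 92.2, 70.6 and 90.7 in WT females. In males it had 121, 108, 94.5, 124 and 117 in HT mice, against 127, 107, 123, 131 and 98.2 in WT mice. All HT females were above all WT females, whereas the males overlapped. The difference was 0.68 ± 0.14 in females, with an adjusted p of 0.163 by limma and 0.00446 by DESeq2, and -0.05 ± 0.14 in males. With the term for Gm10221 reads the difference of Foxf2 in females was 0.65 ± 0.16 (adjusted p 0.117). Such non-overlap was found in 65 genes higher (0.363%) and 62 lower (0.346%) in HT females.

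Exo5, which trims single-stranded DNA in repair, was the gene lower in HT females with the smallest p. Its counts were 195, 189, 190, 197 and 199 in HT females, against 242, 246, 278, 270 and 227 in WT females, with no overlap. In males they were 181, 183, 232, 239 and 236 in HT mice, against 200, 266, 221, 209 and 220 in WT mice. The difference was -0.38 ± 0.08 in females (adjusted p 0.197) and -0.06 ± 0.08 in males. Rad51d, a homologous recombination protein, was at 309 to 339 in HT females and 362 to 427 in WT females, again with no overlap (-0.26 ± 0.06). Cpsf3 and Cwc22, a splicing factor, differed by -0.15 ± 0.04 and -0.27 ± 0.08 in females. Eps8l1 was at 19.2, 93.8, 150, 199 and 22.5 in HT females, against 173, 212, 237, 412 and 274 in WT females (-1.91 ± 0.52). Igip, which encodes a small secreted peptide that promotes IgA production, was at 2772 to 3171 in HT females and 2232 to 2737 in WT females (0.20 ± 0.05), and Cldn5 and Usmg5 differed by 0.40 ± 0.10 and 0.31 ± 0.08. With the term for Gm10221 reads these became -0.24 ± 0.07 for Rad51d, 0.17 ± 0.06 for Igip, 0.46 ± 0.12 for Cldn5 and 0.24 ± 0.09 for Usmg5.

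Nr4a3, an immediate early nuclear receptor on chromosome 4 (48045153 to 48086447), differed among the WT females themselves. Its counts were 974, 1163, 786, 743 and 758 in HT females. They were 451, 265 and 366 in the WT females with Gm10221 reads, and 671 and 837 in WT females 1 and 5, which had none. The difference in all females was 0.87 ± 0.21 (adjusted p 0.383), and with the 5 HT females set against the 3 WT females with reads it was 1.302 ± 0.21 (adjusted p 0.00151). Egr1 was likewise at 4098 to 6984 in HT females, against 2937, 2390 and 1949 in the 3 WT females with reads and 5297 and 6975 in the others. Its difference among females with reads was 1.17 ± 0.23 (adjusted p 0.0264), against 0.63 ± 0.24 in all females.

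Among females with Gm10221 reads, 10 genes passed with limma. Beside Nr4a3 and Egr1, which were higher in HT, Exo5 (-0.44 ± 0.09, adjusted p 0.0424) and Cwc22 (-0.38 ± 0.08, adjusted p 0.0424) were lower. The remaining genes were named after their values were seen: Rnf165, a ubiquitin ligase of motor axon growth (0.41 ± 0.09), Sftpc, the lung surfactant protein gene, which had a low mean of 15.8 in HT mice and 11.1 in WT mice over both sexes (1.65 ± 0.34), Zc3h6, a zinc finger protein (-0.53 ± 0.11), and 3 gene models. With a term for Gm10221 reads in the full design, 10 genes passed too, with Egr4 (0.90 ± 0.19, adjusted p 0.0498) in place of Cwc22. This contrast rests on 3 WT mice, and whether the 2 WT females left out differ in tissue, handling or sequencing was not tested. WT female 3, with the highest olfactory bulb marker sum of the WT mice (71981), is 1 of these 3. With the term, the median of the 25 olfactory bulb markers in females was -0.95, against -0.324 without it. Among the alternatives, the differences of Nr4a3 and Egr4 in females were smallest, 0.66 and 0.55, when WT female 3 was left out. Over both sexes no gene passed with that term, and the smallest adjusted p was 0.0802.

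Within males no gene passed with limma (0%, smallest adjusted p 1), and 552 had an unadjusted p under 0.05 (3.08%). edgeR called 0 genes and DESeq2 called 2 (0.0112%), the pseudogenes Rps13-ps1 and Gm10222. Snrpe, a core protein of the splicing snRNPs, was at 369, 483, 469, 323 and 381 in HT males, against 301, 293, 315, 334 and 288 in WT males (0.39 ± 0.10). All but HT male 4 were above every WT male. Ngb, neuroglobin, was at 83.4, 97.4, 77.6, 66.8 and 49.9 in HT males, against 38.2, 58.4, 63.3, 40.8 and 44.2 in WT males (0.60 ± 0.17). H2afj was at 557 to 701 in HT males and 441 to 538 in WT males with no overlap (0.25 ± 0.07), and Fars2, the mitochondrial phenylalanyl-tRNA synthetase, was at 285 to 325 in HT males and 222 to 275 in WT males (0.23 ± 0.07). Il4ra, the interleukin-4 receptor chain, and Amn, known for vitamin B12 uptake in the gut, differed by 0.30 ± 0.09 and 0.58 ± 0.18. On the lower side, Card6, an adaptor with a caspase recruitment domain, was at 40.9 to 72.2 in HT males and 57.4 to 97.1 in WT males (-0.43 ± 0.13). Bicra, a subunit of a BAF-type complex, Sypl2, Ncoa6, a nuclear receptor coactivator, Zscan18 and Nedd9, a docking protein of focal adhesions, differed by -0.25 ± 0.08, -0.51 ± 0.16, -0.16 ± 0.05, -0.16 ± 0.05 and -0.28 ± 0.10. Non-overlap was found in 43 genes higher (0.24%) and 34 lower (0.19%) in HT males, and in 0 genes in the same direction in both sexes.

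The difference between the sexes was tested directly, and no gene passed with limma (0%, smallest adjusted p 0.999), with 529 at an unadjusted p under 0.05 (2.95%). edgeR called 0 genes and DESeq2 called 2 (0.0112%), both pseudogenes. The female minus male differences farthest above 0 by p were those of Foxf2 (0.73 ± 0.19) and Nr4a3 (0.85 ± 0.29), with Igip (0.23 ± 0.07), Sobp (0.22 ± 0.07), Tent4a, a poly(A) polymerase (0.22 ± 0.08), and Arid5b, a DNA-binding cofactor (0.35 ± 0.12). On the other side, Rps23, a ribosomal protein, was at 1435, 1452, 1394, 1594 and 1305 in HT females, against 1774, 1555, 1463, 1403 and 1864 in WT females, and at 1719, 1847, 1812, 1651 and 1572 in HT males, against 1439, 1522, 1622, 1467 and 1547 in WT males. Its difference was -0.16 ± 0.07 in females and 0.18 ± 0.07 in males. The highest WT female values were those of WT females 1 and 5, which lack Gm10221 reads, and with the term for these reads the difference of Rps23 in females was -0.04 ± 0.07 and the sex difference -0.22. Il4ra, Rbmx2, a splicing protein, P3h4, a collagen-modifying factor, Rad51d and Nme6, a nucleoside diphosphate kinase relative, gave -0.42 ± 0.12, -0.55 ± 0.16, -0.53 ± 0.17, -0.28 ± 0.09 and -0.65 ± 0.21. Across the 13711 genes with a mean of 50 or more, the female and male differences, which share no library, had a Pearson correlation of 0.25, and over all 17925 genes 0.10. Genes are not independent replicates, and shared features such as transcript length enter both.

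Over all genes, 51.2% were above 0 in females and 47.4% in males. Ribosomal protein genes were above 0 in 44 of 76 cases in females (median 0.006) and in 76 of 76 in males (median 0.101). Nuclear-coded oxidative phosphorylation genes were above 0 in 56 of 75 cases in females and 73 of 75 in males, and microglia markers in 18 of 18 in each sex. Excitatory postsynaptic scaffolds had medians of 0.084 in females and -0.055 in males, and presynaptic genes 0.061 and -0.042. With the term for Gm10221 reads the female medians were 0.124 for postsynaptic scaffolds (18 of 24 above 0), 0.127 for presynaptic genes (24 of 28) and 0.409 for myelin markers (23 of 25), the last against 0.097 without the term. They were 0.204 for microglia markers, 0.251 for endothelial markers and 0.232 for immediate early genes with the term, against 0.133, 0.194 and 0.136 without it. Over all genes 8893 of 17925 were above 0 in females with the term. Whether these list medians differ between the sexes was not tested.

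**Figure D5:**
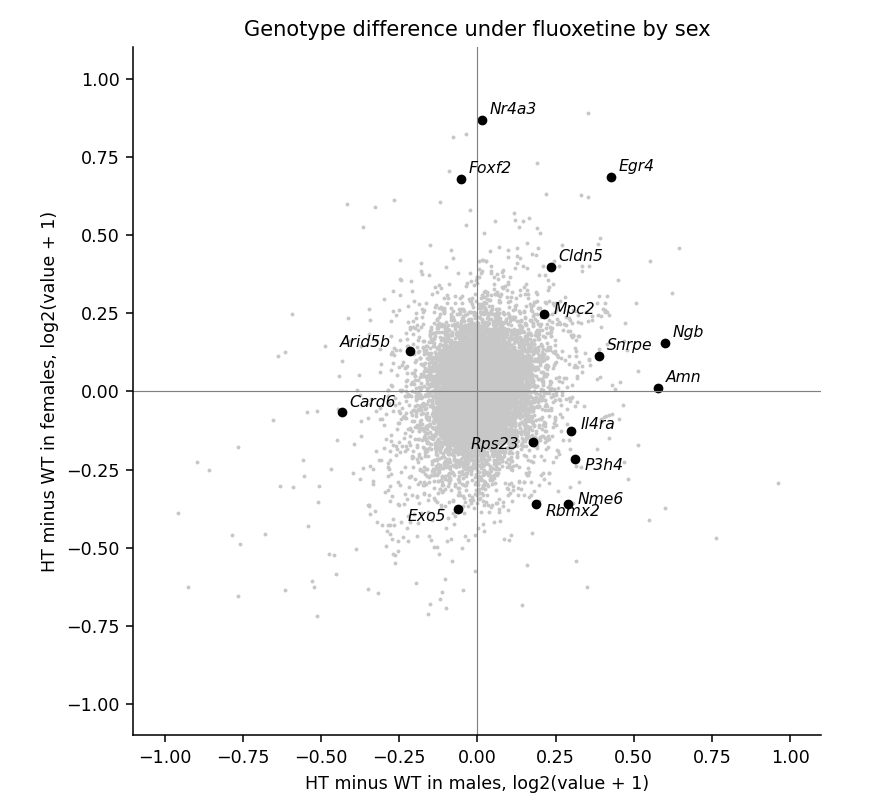
Log2 difference HT minus WT in females (vertical) against that in males (horizontal) for genes with a mean of 50 or more, with 37 genes lying outside the axes. Egr4, Cldn5 and Mpc2 lay above 0 in both sexes, Foxf2 and Nr4a3 in females with values near 0 in males, and Rps23 and P3h4 had opposite signs.

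Against the vehicle arm, the test of whether the genotype difference changed with the drug called no gene with limma (0%, smallest adjusted p 0.232), and 1128 genes had an unadjusted p under 0.05 (6.29%). edgeR called 0 and DESeq2 called 2 (0.0112%). Mpc2 averaged 1489 ± 149 in HT and 1271 ± 154 in WT mice on fluoxetine (SD, n = 10 each). On vehicle it averaged 1239 ± 62.7 in HT mice (n = 10) and 1290 ± 92.1 in WT mice (n = 9). The genotype difference under fluoxetine exceeded that under vehicle by 0.28 ± 0.07 (adjusted p 0.731). Ier5 averaged 1540 ± 204 in HT and 1276 ± 194 in WT mice on fluoxetine, and 1422 ± 121 in HT and 1645 ± 167 in WT mice on vehicle, a change of 0.47 ± 0.12 (adjusted p 0.731, and 0.0422 with library weights). Cox5a gave 0.23 ± 0.06 and Cbx7, a Polycomb protein, -0.22 ± 0.05, with adjusted p-values of 0.731 and 0.652.

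Against the lithium arm no gene passed with limma (0%, smallest adjusted p 0.143), and 1567 had an unadjusted p under 0.05 (8.74%). edgeR called 0 and DESeq2 called 3 (0.0167%). Within the lithium arm itself limma and edgeR called 0 genes and DESeq2 called 14 (0.0781%). The 4 genes with the smallest p all had an adjusted p of 0.143. Ccnf, a cyclin of the ubiquitin ligase SCF, averaged 149 ± 10.6 in HT and 133 ± 10.3 in WT mice on fluoxetine, and 148 ± 22.7 in HT (n = 9) and 189 ± 25.1 in WT mice (n = 10) on lithium, a change of 0.51 ± 0.11 (adjusted p 0.0159 by DESeq2). Ier5 gave 0.51 ± 0.12, Rasip1, an endothelial RAS effector, 0.42 ± 0.09 and Slf1, a protein of DNA repair, -0.27 ± 0.06. With a term for Gm10221 reads 12 genes passed, Ccnf, Slf1 and Rasip1 among them, and without WT female 5 the count was 7.

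The genotype differences of the arms did not run in parallel across genes. Over the 13711 genes with a mean of 50 or more, the fluoxetine differences had a Pearson correlation of -0.08 with the vehicle differences and of -0.26 with the lithium differences. These comparisons share no library. Between the vehicle and lithium arms the presence of Gm10221 reads and the drug cannot be told apart, and marker sums of neighbouring tissue and transcript length differ between libraries in every arm. Zscan18 is an example: HT minus WT was -0.16 ± 0.04 under fluoxetine, 0.05 ± 0.04 under vehicle and 0.08 ± 0.04 under lithium.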

How the data were processed

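RNA of the prefrontal cortex was made into libraries with a stranded mRNA kit, per the labels' protocols, and the submitters' processing notes name the build GRCm38, DESeq2 1.19.11, Salmon 0.11.2 and R 3.6.0, with options not given in the sources used here. The deposited signal values are normalized read counts per gene, that is reads scaled by one factor per library. Whole reads could be recovered from them: 100% of values were whole multiples of 1 step within a tolerance of 0.01, and the step ran from 0.788 to 1.303, though in 11 libraries it was near 1. Gene names came from GENCODE for 18077 of 18088 identifiers, and promoter sequences from RefSeq.

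Log2(value + 1) was fitted with limma 3.58.1 in R 4.3.3 over all 58 libraries with a mean for each genotype, drug and sex, and contrasts gave the differences. p-values were adjusted by Benjamini-Hochberg over 17925 genes, and 163 genes with low values were not tested. Differences on this scale understate the change of low genes. edgeR 4.0.16 and DESeq2 1.42.0 ran on the recovered reads as alternatives. The procedure was tested on simulated data. Other alternatives were the pseudocount, the filter, quantile normalization, surrogate variables from sva 3.50.0, library weights, a term for Gm10221 reads, a replicate block and leaving out single libraries. The removal of the transcript length trend, the olfactory bulb covariate and the list values under left-out libraries were added after seeing the data. The gene lists and comparisons were chosen with earlier results of these data known. Named genes were Tanc2, the 14 well-measured genes (mean of 50 or more) with the smallest p in each direction, 6 in each direction in each sex and for the sex difference, 4 for each comparison of arms, genes passing in any tool, and up to 6 members of a list. Pseudogenes and gene models were passed over in the ranking. Most genes were thus chosen by p in the same libraries whose positions against the WT mean of their sex are counted. Those counts only describe the genes, and their share over all genes was not computed. One gene that the rule names is not reported here.

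Replicate numbers were taken from the labels. Over 10 pairs of fluoxetine libraries with the same sex and number, deviations from the group means correlated between -0.158 and 0.211, so the numbers were not used as pairs. No 2 of the 190 pairs of fluoxetine libraries agreed within sampling noise, and the sex-linked transcripts matched the labelled sex in all 58 libraries.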

Additional observations from a re-analysis of the deposited data

Results flagged for a closer look

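In groups of 5 libraries, a library was set apart when its gap to the nearest other was a large share of the group's range (Dixon's test at 95%). This held for 31 of the 412 groups examined (7.52%), and chance alone flags about 1 in 20. The values below are normalized read counts, with the range of the other 4 libraries of the same genotype and sex.

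Flt1 was at 2429 in HT female 4, and between 1789 and 1889 in the others. Foxf2 was at 172 in HT female 4, and between 124 and 132 in the others. Grik3 was at 3023 in HT female 4, and between 4319 and 4666 in the others. H2afj was at 779 in HT female 4, and between 648 and 668 in the others. Rpl9 was at 5018 in HT female 4, and between 3753 and 4062 in the others. Tanc2 was at 7424 in HT female 4, and between 8150 and 8424 in the others. mt-Rnr2 was at 184998 in HT female 4, and between 130139 and 142190 in the others. The summed level of mitochondrially coded genes was 2831957 in HT female 4, and between 1983583 and 2212370 in the others. In HT female 4, endothelial markers summed to 29744, against 22342 to 23699 in the others. The summed level of myelinating oligodendrocyte markers was 88254 in HT female 4, and between 159048 and 187711 in the others. Cacng2 was at 2195 in WT male 5, and between 2665 and 2847 in the others. Gria1 was at 12573 in WT male 5, and between 10310 and 10810 in the others. H2afj was at 441 in WT male 5, and between 515 and 538 in the others. Tnik was at 9307 in WT male 5, and between 7645 and 8033 in the others. In WT male 5, striatal neuron markers summed to 22947, against 25709 to 26573 in the others. The summed level of olfactory bulb and neuroblast markers was 51151 in WT male 5, and between 16827 and 21215 in the others.

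Arc was at 2772 in HT male 3, and between 636 and 1124 in the others. Fos was at 1043 in HT male 3, and between 297 and 404 in the others. Zfp189 was at 199.5 in HT male 3, and between 156 and 166 in the others. In HT male 3, immediate early genes summed to 50310, against 43823 to 45462 in the others. Aif1 was at 123 in HT male 2, and between 95.1 and 102 in the others. The summed level of the unfolded protein response genes was 74024 in HT male 2, and between 77870 and 78532 in the others. Nedd9 was at 201 in HT female 3, and between 266 and 290 in the others. Dnajc3 was at 2034 in HT female 5, and between 2186 and 2227 in the others. Net1 was at 1509 in WT female 2, and between 961 and 1077 in the others. Gria1 was at 13323 in WT female 3, and between 10339 and 11152 in the others. In WT female 4, the glucocorticoid response genes summed to 26494, against 31275 to 32648 in the others. Ncoa6 was at 2264 in WT female 5, and between 2608 and 2651 in the others. Il4ra was at 90.6 in WT male 2, and between 140 and 157 in the others. mt-Atp6 was at 19096 in WT male 3, and between 28457 and 30987 in the others. Tent4a was at 1153 in WT male 4, and between 1188 and 1199 in the others.

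In 3 genes all HT libraries of one sex lay above the WT mean of their sex and all of the other sex below it. Arid5b differed by 0.13 in females and -0.21 in males, P3h4 by -0.21 and 0.31, and Rps23 by -0.16 and 0.18. A test of the difference between the sexes was run for each, and the adjusted p was 0.999 (limma). With the term for Gm10221 reads the female difference of Rps23 was -0.04, that of P3h4 -0.35 and that of Arid5b 0.17.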

How the results depend on the processing

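Under limma 0 genes passed between HT and WT mice on fluoxetine, and this stayed so with either pseudocount, either filter, quantile normalization, surrogate variables, library weights, the term for Gm10221 reads, the length trend removed and the olfactory bulb covariate. With DESeq2 the counts were 2 over both sexes, 3 in females, 2 in males, 2 for the sex difference, 2 against vehicle, 3 against lithium, 3 within vehicle and 14 within lithium. With the term for Gm10221 reads they were 10 in females, 12 against lithium and 10 within lithium, and 10 in females when WT females without such reads were left out. With library weights they were 1 in females, 2 against vehicle, 3 against lithium, 2 within vehicle and 4 within lithium. Within lithium the stricter filter gave 8 and the olfactory bulb covariate 2. Leaving out single libraries gave 0 to 2 genes over both sexes (2 without WT female 2), 0 to 1 in females (1 without WT female 1), 0 in males, 0 for the sex difference, 0 against vehicle, 0 to 7 against lithium (7 without WT female 5), 0 within vehicle and 0 to 81 within lithium (81 without WT lithium male 1). Tanc2 ranged from 0.0787 to 0.114. With the replicate block 0 genes passed, and 944 had an unadjusted p under 0.05. Arc turned to -0.091 with library weights and ranged from -0.12 to 0.15 when single libraries were left out, and mt-Atp6 turned to -0.0527 with the term for Gm10221 reads and among females with such reads. The cause of these changes was not tested. Of the other values of single genes, 3523 kept their direction and their side of the threshold and 20 came to pass it. Genes with a mean under 50 have wide intervals, and differences in them may have gone undetected.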
